A study of Mus musculus with 8 samples.

Results

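Adult hippocampal neurogenesis was followed through 10 genes that mark its steps, from stem cell to immature neuron, in RNA-seq libraries of mouse hippocampus. The genes were chosen by symbol: Sox2 and Nes for neural stem cells, Mki67 and Top2a for dividing cells, Eomes for intermediate progenitors, and Neurod1, Neurod2, Sox11, Dcx and Igfbpl1 for differentiating and immature neurons. Of the 10 symbols, 9 matched 1 feature each among the 24338 features with a symbol and the 56575 features in all; Neurod1 was not analysed here. All 9 passed the filter of a mean of at least 10. The samples were hippocampi of 8-week-old C57BL/6 mice in 2 groups of 4 samples, labelled WT and Slm2KO; the second label names a knockout of the RNA-binding splicing regulator SLM2. No other allele or agent is named for either group, and the kind of Slm2KO allele was not given in the sources used here. Whole hippocampi hold the dentate gyrus together with the pyramidal fields, glia, vessels and any attached choroid plexus. In such bulk tissue, fewer cells of a type and less RNA per cell cannot be told apart.

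In the dentate gyrus, radial glia-like stem cells divide rarely and give rise to intermediate progenitors that divide quickly. These become neuroblasts and then immature granule neurons, which mature and join the granule cell layer over weeks. Each step has its own genes: SRY-box factors and intermediate filaments in stem cells, mitotic proteins in dividing cells, T-box and basic helix-loop-helix factors in committed cells, and cytoskeletal regulators in immature neurons. Several of these genes are also used by other cells: Sox2 by astrocytes and ependyma, Nes by vessels, Mki67 and Top2a by any dividing cell, Neurod2 by mature excitatory neurons.

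All values are normalised read counts, scaled for depth and not for gene length, and the libraries held 104020058 to 125985224 reads. Markers of neurons were present in every library, with a summed count of 687066 to 899941 over 9 genes and none at 0. Transcripts of Khdrbs3, the gene for SLM2, numbered 22051 ± 2387 in WT and 29749 ± 3040 in Slm2KO (SD, n = 4), so this gene-level count ran against the Slm2KO label: all 4 Slm2KO libraries (25932 to 33366) lay above all 4 WT libraries (19457.5 to 24544). The log2 difference was 0.43 (limma adjusted p = 1.00; exact permutation p = 0.0286, the smallest possible). Which part of the gene was targeted is unknown here, and WT and Slm2KO below mean the libraries labelled so. Choroid plexus RNA set some libraries apart: the 11 choroid plexus and ependymal markers, none at 0, summed to 232364 to 1854100 in WT and 392510 to 2343520 in Slm2KO, lowest in WT 2 and highest in Slm2KO 4. The labels do not say that each sample came from a separate animal, so p-values measure only the spread between these samples.

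The promoters of the proliferation genes are shown because Mki67 and Top2a moved together across the libraries, as did Nusap1 and Prc1, the genes next closest to Mki67 in pattern. Each is the 250 bases before the RefSeq transcription start on GRCm38.p6, the assembly of mm10, in the direction of the gene; 9 of the 10 symbols had a window in that table, and Prc1 had 2, of which the first is shown. Capitals mark TTTGAA, the core of the cell cycle genes homology region, and CCAAT, the box bound by NF-Y, on either strand (TTCAAA and ATTGG on the other); matches of the 2 motifs were counted separately and may share letters at their ends.
Mki67 (chr7:135716380-135716629, minus strand): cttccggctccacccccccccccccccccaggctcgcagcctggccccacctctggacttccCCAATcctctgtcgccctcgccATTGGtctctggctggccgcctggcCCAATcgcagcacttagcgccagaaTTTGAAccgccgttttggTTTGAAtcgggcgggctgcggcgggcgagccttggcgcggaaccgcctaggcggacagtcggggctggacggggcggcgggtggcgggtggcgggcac
Top2a (chr11:99024190-99024439, minus strand): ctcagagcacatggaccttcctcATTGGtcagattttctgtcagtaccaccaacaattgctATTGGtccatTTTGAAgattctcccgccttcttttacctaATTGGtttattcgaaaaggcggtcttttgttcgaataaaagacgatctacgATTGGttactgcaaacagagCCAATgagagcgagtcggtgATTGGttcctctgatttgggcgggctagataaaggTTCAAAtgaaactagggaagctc
Nusap1 (chr2:119618048-119618297, plus strand): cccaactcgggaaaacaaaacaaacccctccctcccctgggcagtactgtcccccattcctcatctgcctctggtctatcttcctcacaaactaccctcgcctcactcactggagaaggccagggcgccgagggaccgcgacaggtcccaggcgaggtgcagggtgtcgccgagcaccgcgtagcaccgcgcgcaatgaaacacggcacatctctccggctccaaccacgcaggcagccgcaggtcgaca
Prc1 (chr7:80294201-80294450, plus strand): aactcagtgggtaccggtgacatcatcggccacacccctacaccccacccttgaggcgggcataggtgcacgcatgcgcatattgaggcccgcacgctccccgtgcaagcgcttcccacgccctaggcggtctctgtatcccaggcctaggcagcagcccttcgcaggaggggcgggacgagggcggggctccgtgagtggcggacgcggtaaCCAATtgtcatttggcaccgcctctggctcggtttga
The Mki67 window held 2 copies of TTTGAA and 3 of CCAAT, and the Top2a window 2 and 6. In the Nusap1 window neither set of letters occurred, and the Prc1 window held 1 CCAAT. Among the 32851 promoter windows of this length in the RefSeq table, 16.0% held TTTGAA, 33.8% held CCAAT and 5.55% held both. A match of letters is a description and not a binding site.

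No gene of the neurogenesis sequence differed detectably between the genotypes. None of the 9 passed the limma test at an adjusted p of 0.05, against a background of 0.0039% of the 25667 features tested (1 feature), and each of the 9 had an adjusted p of 1.00. At an unadjusted p under 0.05 the count was also 0 of 9, against 3.52% of all features (1.7% higher and 1.82% lower in Slm2KO). In edgeR and DESeq2 also 0 of 9 passed at an adjusted p of 0.05, against backgrounds of 0.0039% of 25667 features and 0.0469% of 19195 features. At an unadjusted p under 0.05 both again gave 0 of 9. Of all 25667 features, 976 were under it in edgeR and 944 in DESeq2. The groups overlapped for every one of the 9. Over all features they did not overlap for 2.5% (1.33% with Slm2KO higher and 1.17% with Slm2KO lower), so 0 of 9 is close to that share. The log2 difference, Slm2KO minus WT on the log2(value + 1) scale, was negative for 8 genes and positive for Sox11, with a median of -0.08 beside a median of -0.01 over all features, of which 53.9% were negative. For 7 of the 9, all but Eomes and Igfbpl1, the 95% interval lay within 1.5-fold both ways, against 65.7% of all features, and for 8, all but Eomes, it lay within 2-fold, against 85.2%. The labels number the samples in a lower and a higher series, each with replicates of both groups; 3 genes (Eomes, Neurod2 and Dcx) had opposite signs in the 2 series, against 50.6% of all features. From the lower and the higher series in turn the log2 difference was -0.07 and -0.04 for Sox2, -0.30 and -0.03 for Nes, -0.09 and -0.10 for Mki67, -0.13 and -0.12 for Top2a, 0.19 and -0.30 for Neurod2, 0.21 and 0.06 for Sox11, 0.02 and -0.14 for Dcx, and -0.31 and -0.12 for Igfbpl1.

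**Figure D1:**
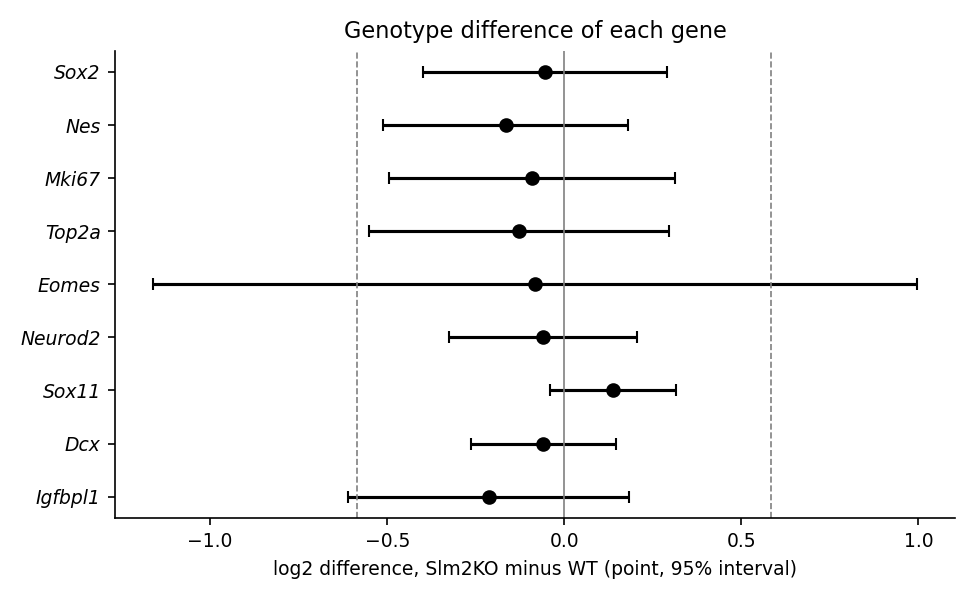
Log2 difference between Slm2KO and WT libraries for the 9 genes (x axis, log2 units; points, limma estimates from 4 libraries per group; bars, 95% intervals; dashed lines, 1.5-fold). All 9 intervals include 0, and that of Eomes, from -1.16 to 0.99, is the widest.

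The stem cell genes were measured at moderate levels and varied by less than 2-fold. Sox2 encodes the SRY-box factor that keeps neural stem cells uncommitted and lies on chromosome 3 (34650055 to 34652459, plus strand; mm10, as are all feature positions below), in a single exon inside the longer noncoding gene Sox2ot on the same strand. Its normalised read counts were 353, 351, 283 and 299 in WT 1 to 4 and 291, 386, 237 and 336 in Slm2KO 1 to 4. The highest library, Slm2KO 2, and the lowest, Slm2KO 3, carried the same label, and the groups overlapped. The means were 321 ± 35.5 in WT and 313 ± 63.5 in Slm2KO (SD, n = 4), a log2 difference of -0.06 (SE 0.15; interval of 0.758- to 1.22-fold; exact permutation p = 0.771, two-sided), which became 0.07 without Slm2KO 3. Sox2ot, which shares the region, was far more abundant at 1713 ± 153 and 1657 ± 175 (SD, n = 4); the assignment of reads in the overlap was not given in the sources used here.

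Nes encodes nestin, the intermediate filament of neural stem cells that is also made by growing vessels (chromosome 3, 87971066 to 87980449, plus strand). Counts were 2098, 2590, 1511 and 1755 in WT 1 to 4 and 1716, 2078, 1567 and 1628 in Slm2KO 1 to 4. WT 2 stood highest, and both the lowest library and the highest were labelled WT. The means of 1988 ± 468 and 1747 ± 229 (SD, n = 4) gave a log2 difference of -0.17 (SE 0.16; interval of 0.702- to 1.13-fold; exact permutation p = 0.457, two-sided). It was -0.03 without WT 2 and -0.29 without WT 3, the highest and the lowest library. Endothelial and mural markers had a log2 difference below 0 for 9 of 10, against 53.9% of all features. Oligodendrocyte precursor markers were also below 0 for 9 of 10, and neuronal markers for 8 of 9. The endothelial and mural summed count ran from 31559 to 39078 in WT and from 29517 to 38919 in Slm2KO, with none at 0. The part of vessel cells in the nestin values was not tested.

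Across the 8 libraries Sox2 and Nes varied in the same direction, with Pearson's r = 0.712 (exact permutation p = 0.0436) and Spearman's rho = 0.810 (exact permutation p = 0.0218), but neither passed Benjamini-Hochberg adjustment over the 5 gene pairs examined (0.109 and 0.0544). Without the 2 libraries farthest from the median of Sox2, Slm2KO 2 and Slm2KO 3, r was 0.743. Groups and the 2 series of sample numbers in the labels hold 4 libraries each, too few for a separate value within each. As deviations from the group means over all 8 libraries, r was 0.715 (exact permutation p = 0.0458, unadjusted).

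The proliferation genes were the most tightly coupled pair. Mki67 encodes the Ki-67 protein that coats mitotic chromosomes, present in all dividing cells (chromosome 7, 135689784 to 135716418, minus strand). Counts were 466, 756, 790 and 673 in WT 1 to 4 and 466, 671, 679 and 683 in Slm2KO 1 to 4. One library of each label, WT 1 and Slm2KO 1, was low, and the other 6 lay well above them. Top2a encodes the topoisomerase that untangles replicated chromosomes (chromosome 11, 98937373 to 99024189, minus strand). Its counts were 610, 884, 1015.5 and 804 in WT 1 to 4 and 521, 857, 858 and 806 in Slm2KO 1 to 4. WT 1 and Slm2KO 1 were again the lowest of their groups. The deposited Top2a feature spans 86.8 kb where GENCODE vM21 gives the gene 31.2 kb, and it takes in Rara on the opposite strand and the short gene Gjd3. Rara itself did not share the pattern, with 881 in WT 1 and 843 in Slm2KO 1 and its lowest count, 640, in Slm2KO 4.

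Group means were 671 ± 145 in WT and 625 ± 106 in Slm2KO for Mki67, and 828 ± 170 and 761 ± 161 for Top2a (SD, n = 4). The log2 differences of -0.09 (SE 0.18; exact permutation p = 0.600, two-sided) and -0.13 (SE 0.19; exact permutation p = 0.571, two-sided) lay within the spread of the libraries. Without Slm2KO 1 they turned positive, at 0.04 for both genes. Without both low libraries they were -0.12 for Mki67 and -0.09 for Top2a. Mki67 and Top2a followed each other with Pearson's r = 0.967 (exact permutation p = 0.000918, adjusted p = 0.00459 over the 5 pairs) and Spearman's rho = 0.857 (exact permutation p = 0.0107, adjusted p = 0.0536). With WT 1 and Slm2KO 1 removed, as the pair lying farthest from the Mki67 median, r was 0.866, so the relation did not rest on them alone.

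Some other mitotic genes carried the same pattern. Over 15828 genes with a symbol and a mean of at least 50, the 3 whose centred log2 values lay closest to those of Mki67 were Top2a, Nusap1 and Prc1, with root mean square differences of 0.075, 0.081 and 0.086 on the log2 scale over the 8 libraries, beside a spread of 0.272 for Mki67 itself. Nusap1 and Prc1 encode proteins that bind and bundle the microtubules of the mitotic spindle. Nusap1 held 151 in WT 1 and 150 in Slm2KO 1 and 214 to 270 in the other 6 libraries. Of 34 proliferation genes, 15 had WT 1 and Slm2KO 1 as their 2 lowest libraries, among them Ccna2, Ccnb1, Aurka, Aurkb, Tpx2, Cenpf and Kif11, which act from S phase to mitosis, whereas 4.27% of all features did (1096 of 25667). The rest of the 34 did not have this pair as their 2 lowest. This pair of libraries was chosen after the values of Mki67 and Top2a were seen, and both genes are among the 15. Every library held at least 465 reads of Mki67 and 564 of Top2a.

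**Figure D2:**
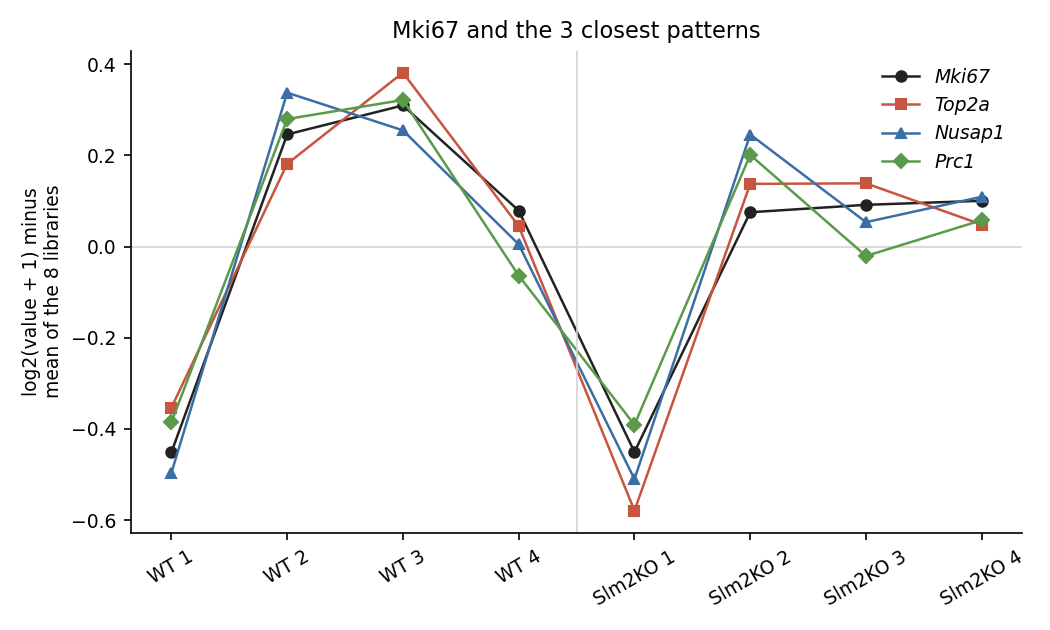
Centred log2(value + 1) of Mki67, Top2a, Nusap1 and Prc1 (y axis, log2 units from each gene's mean over 8 libraries) in the 4 WT and 4 Slm2KO libraries (x axis). The lines run close together, with WT 1 and Slm2KO 1 lowest for all 4 genes.

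Set against Sox2 within each library, Mki67 showed no detectable difference between the groups. The log2 ratio of Mki67 to Sox2, which does not depend on library scaling, was 1.04 ± 0.45 in WT and 1.00 ± 0.37 in Slm2KO (SD, n = 4). The difference of -0.04 gave an exact permutation p = 0.886 (two-sided; 0.943 adjusted over 3 ratios). Its sign changed when WT 3, WT 4, Slm2KO 1 or Slm2KO 2 was left out.

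Eomes, which encodes the T-box factor TBR2 of intermediate progenitors, varied far more than any other of the 9 genes (chromosome 9, 118478189 to 118487608, plus strand). Counts were 190, 241, 435 and 156 in WT 1 to 4 and 204, 90.5, 249 and 538 in Slm2KO 1 to 4. The highest value, in Slm2KO 4, was 5.94 times the lowest, in Slm2KO 2, so that both extremes carried the same label. WT 3 was high as well. The range of 2.56 on the log2 scale was wider than that of 96.8% of the features tested, and the coefficient of variation of 56.7% was 9.18 times that of counting error alone. Means were 256 ± 125 in WT and 270 ± 190 in Slm2KO (SD, n = 4), while the fitted log2 difference was -0.08 (SE 0.48; interval of 0.448- to 1.99-fold; exact permutation p = 0.971, two-sided). The means and the fit thus pointed in opposite directions. It became 0.35 without Slm2KO 2, 0.21 without WT 3 and 0.08 in both edgeR and DESeq2. Samples of the lower number series gave a log2 difference of -0.65 and those of the higher series 0.49, from 2 libraries a group each.

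By the same measure of likeness, the genes with a pattern close to Eomes included Gpr133, an adhesion receptor, and Slc10a4, a vesicular carrier protein, at root mean square differences of 0.190 and 0.219, where Eomes itself deviated by 0.754. This search for Eomes was added after its values were seen. Sp8, a factor of interneuron and olfactory lineages, was likewise lowest in Slm2KO 2 at 215 and highest in Slm2KO 4 at 694. Other genes of the intermediate progenitor and neuroblast list were mixed. Gadd45g, a stress-response gene, was highest in the same pair of libraries as Eomes, WT 3 and Slm2KO 4, whereas the helix-loop-helix gene Nhlh1 was lowest in Slm2KO 1 at 238. Neurog2, the proneural factor that acts ahead of Eomes, held 175 in Slm2KO 4 and 283 in Slm2KO 2, and Tbr1, a T-box factor of postmitotic glutamatergic neurons, held 1674 and 2395. WT 3 and Slm2KO 4 were the 2 highest libraries for Eomes and Igfbpl1, for 10 of 11 choroid plexus and ependymal markers, for 3 of 11 ventricular-zone and olfactory lineage markers (Dlx1, Dlx5 and Sp8), and for 9.71% of all features. The summed count of those 11 lineage markers was 12296 to 14504 in WT and 11382 to 14445 in Slm2KO, with none at 0. WT 3 and Slm2KO 4 were also the highest pair for 6 of 34 proliferation and 3 of 19 immature neuron genes. For intermediate progenitor and neuroblast genes it was 2 of 12, and for mature granule cell genes 2 of 14. For stem cell and radial glia genes it was 1 of 21, and for niche signals 0 of 19, beside the same 9.71% of all features. With Ttr, the main choroid plexus transcript, as a covariate, the log2 difference of Eomes was -0.12, and without the libraries of lowest and highest Ttr, WT 2 and Slm2KO 4, it was -0.49; neither passed. The part of choroid plexus or ventricular cells in the level of Eomes was not tested.

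**Figure D3:**
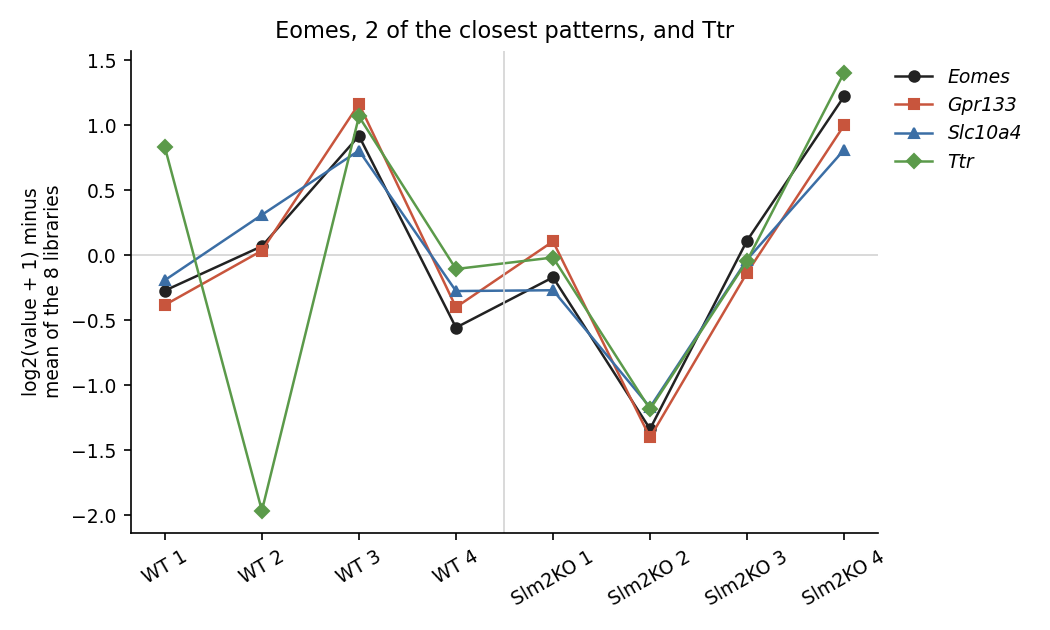
Centred log2(value + 1) of Eomes, the close genes Gpr133 and Slc10a4, and Ttr (y axis, log2 units from each gene's mean over 8 libraries) in the 8 libraries (x axis). Eomes, Gpr133 and Slc10a4 are lowest in Slm2KO 2 and highest in WT 3 and Slm2KO 4; Ttr shares those highest libraries but is lowest in WT 2.

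Among the genes of differentiating neurons, Neurod2 was by far the most abundant and did not separate the genotypes. It encodes a basic helix-loop-helix factor that drives neuronal differentiation and stays on in mature excitatory neurons (chromosome 11, 98325417 to 98329777, minus strand). Counts were 18998, 18694, 19986 and 22231 in WT 1 to 4 and 19733, 23285, 19600 and 14859 in Slm2KO 1 to 4. Slm2KO 4, the library richest in choroid plexus RNA, stood lowest and Slm2KO 2 highest. Means of 19977 ± 1601 and 19369 ± 3457 (SD, n = 4) gave a log2 difference of -0.06 (SE 0.12; exact permutation p = 0.800, two-sided), which became 0.06 without Slm2KO 4. Neurod6, a related factor of pyramidal neurons, held 47910 ± 6014 and 50589 ± 6215 (SD, n = 4).

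Sox11, an SRY-box factor that switches on immature neuron genes, was the only one of the 9 with a higher fitted level in Slm2KO (chromosome 12, 27334268 to 27342720, minus strand; a gene of 1 exon). Counts were 3443, 3185, 3748 and 3351 in WT 1 to 4 and 3414, 4318, 3666 and 3732 in Slm2KO 1 to 4. Slm2KO 2 stood above the rest, and the other 3 Slm2KO libraries lay within the range of WT. Means of 3432 ± 236 and 3782 ± 383 (SD, n = 4) gave a log2 difference of 0.14 (SE 0.080; interval of 0.972- to 1.24-fold; limma p = 0.116, adjusted p = 1.00; exact permutation p = 0.229, two-sided). It stayed positive, from 0.07 to 0.19, in each alternative analysis run. Sox4, its close relative, held 3319 ± 110 and 3513 ± 424 (SD, n = 4), a log2 difference of 0.07 that did not pass.

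Dcx, which encodes the microtubule-binding protein doublecortin of migrating neuroblasts and immature neurons, was the steadiest gene of the set (chromosome X, 143855843 to 143933316, minus strand). Counts were 653, 735, 768 and 736 in WT 1 to 4 and 635, 774, 641 and 730 in Slm2KO 1 to 4. The highest library exceeded the lowest only 1.22-fold, and high and low values occurred under both labels. Means of 723 ± 49.3 and 695 ± 68.3 (SD, n = 4) gave a log2 difference of -0.06 (SE 0.092; interval of 0.833- to 1.11-fold; exact permutation p = 0.486, two-sided). Its coefficient of variation, 8.05%, was 2.15 times that of counting error. A separate feature without a symbol, GSMG0042901, lies inside Dcx on the same strand (143866546 to 143868743); it held 291 ± 27.6 and 267 ± 78.8 (SD, n = 4), and any reads of Dcx that fell to it are missing from the values above.

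Igfbpl1, a secreted relative of the insulin-like growth factor binding proteins made by immature neurons, had the largest fitted difference of the 9 (chromosome 4, 45809486 to 45826829, minus strand). Counts were 1329, 1627, 2241 and 1376 in WT 1 to 4 and 1164, 1212, 1487 and 1760 in Slm2KO 1 to 4. WT 3 was the highest, Slm2KO 1 and Slm2KO 2 were the lowest, and the other 5 libraries were mixed between the labels. Means of 1643 ± 419 and 1406 ± 275.98 (SD, n = 4) gave a log2 difference of -0.21 (SE 0.18; interval of 0.655- to 1.14-fold; limma p = 0.260, adjusted p = 1.00; exact permutation p = 0.371, two-sided). Without WT 3 it shrank to -0.05.

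**Figure D4:**
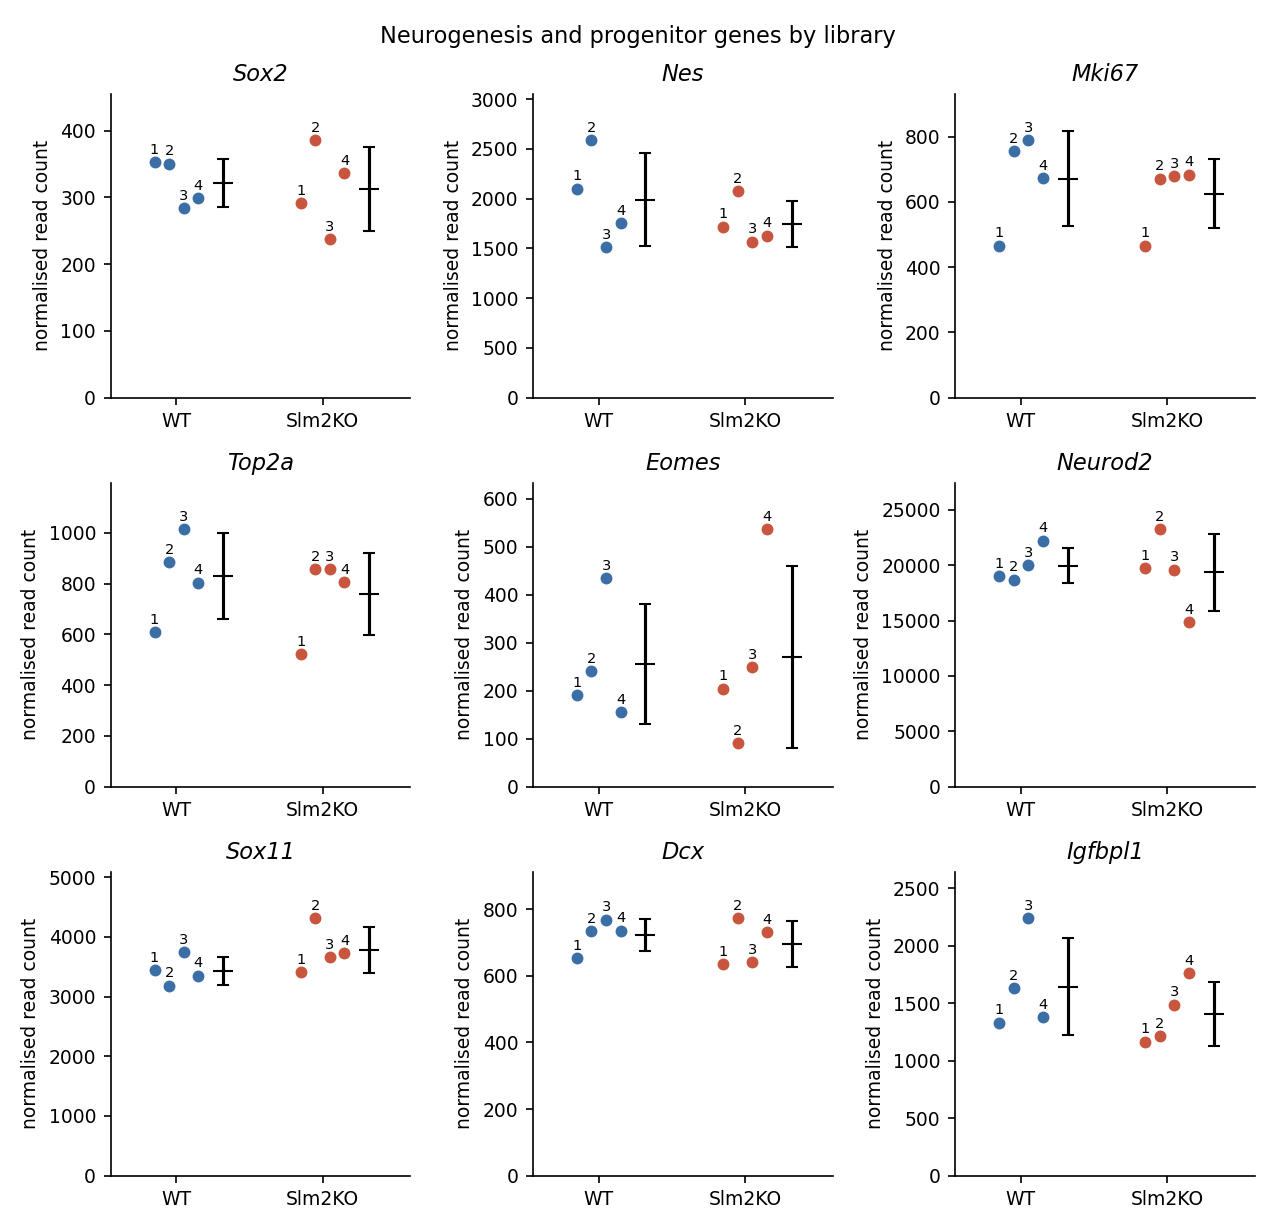
Normalised read count of each of the 9 genes (y axes, from 0) in the WT and Slm2KO libraries (points, numbered by replicate; bars, mean ± SD, n = 4 per group). The groups overlap in every panel; Mki67 and Top2a are low in library 1 of each label, and Eomes spans 90.5 to 538.

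No relation among the 3 immature neuron genes passed the test, and the values of r depended on single libraries. Pearson's r was 0.392 for Sox11 and Dcx, -0.014 for Sox11 and Igfbpl1 and 0.460 for Dcx and Igfbpl1, with exact permutation p values of 0.352, 0.972 and 0.251 and adjusted values of 0.440, 0.972 and 0.418. Spearman's rho was 0.405, 0.143 and 0.286 (exact permutation p = 0.327, 0.752 and 0.501). Leaving out the pair of libraries at the extremes of the first gene (WT 2 and Slm2KO 2 for Sox11, Slm2KO 1 and Slm2KO 3 for Dcx), r was 0.368, 0.831 and 0.305. Without Slm2KO 2 alone, Dcx and Igfbpl1 gave r = 0.772 (exact permutation p = 0.0361, unadjusted). As deviations from the group means, Sox11 and Dcx gave r = 0.666 (exact permutation p = 0.0755, unadjusted). Their closest genes in pattern also differed: Fam173b, Lrch3 and the chaperone gene Hspa8 for Dcx (root mean square differences of 0.032 to 0.043), Ppp4r1, Gtf2e2 and Mkks for Sox11 (0.053 to 0.056), and Ccdc89, 1700101E01Rik and a merged feature of 2 genes for Igfbpl1 (0.082 to 0.124). Dcx and Sox11 varied so little, at 0.110 and 0.126 around their means, that many genes lie near them.

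Relative to Prox1, the factor of mature granule cells, Dcx and Igfbpl1 showed no detectable shift. Prox1 held 7432 ± 330 in WT and 6501 ± 836 in Slm2KO (SD, n = 4; limma adjusted p = 1.00). Its log2 difference was -0.20 (interval of 0.759- to 0.997-fold; exact permutation p = 0.0857, two-sided). The groups overlapped, and the lowest count, 5390, was in Slm2KO 4. Dcx itself was at -0.06 and Igfbpl1 at -0.21, so both ratios also carry the difference of Prox1. Sox11 was not set against Prox1. Its own log2 difference of 0.14 was opposite in sign to that of Prox1. The log2 ratio of Dcx to Prox1 was -3.36 ± 0.11 in WT and -3.22 ± 0.24 in Slm2KO (SD, n = 4), a difference of 0.14 with an exact permutation p = 0.343 (two-sided; 0.943 adjusted over 3 ratios). By library it was -3.51, -3.31, -3.35 and -3.27 in WT and -3.45, -3.24, -3.31 and -2.88 in Slm2KO, so Slm2KO 4 alone stood above the WT range by a wide margin. Without that library the difference was 0.03. For Igfbpl1 to Prox1 the ratios were -2.21 ± 0.30 and -2.22 ± 0.46 (SD, n = 4), a difference of -0.01 (exact permutation p = 0.943, two-sided) whose sign changed without WT 2, WT 3, Slm2KO 1 or Slm2KO 2.

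Per kilobase of exon, the 9 genes differed widely in level. Neurod2 led with a normalised read count of 6261 ± 800 per kilobase (SD over 8 libraries), above every other gene in every library. Igfbpl1 at 469 ± 108, Sox11 at 434 ± 42.0 and Nes at 291 ± 56.8 formed the next group, in which neighbours overlapped. Sox2 followed at 154 ± 23.3, clear of both its neighbours. Top2a at 88.1 ± 17.5, Mki67 at 64.4 ± 11.96, Eomes at 63.3 ± 35.9 and Dcx at 56.1 ± 4.51 came last, and neighbours in that order overlapped. Exon lengths were the union of GENCODE vM21 exons, from 2.06 kb for Sox2 to 12.6 kb for Dcx. A gene whose usual transcript is shorter than this union has its level understated. The level of Top2a may be overstated, as its feature takes in Rara and Gjd3 but was divided by Top2a exons alone. That of Dcx lacks any reads that fell to GSMG0042901.

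**Figure D5:**
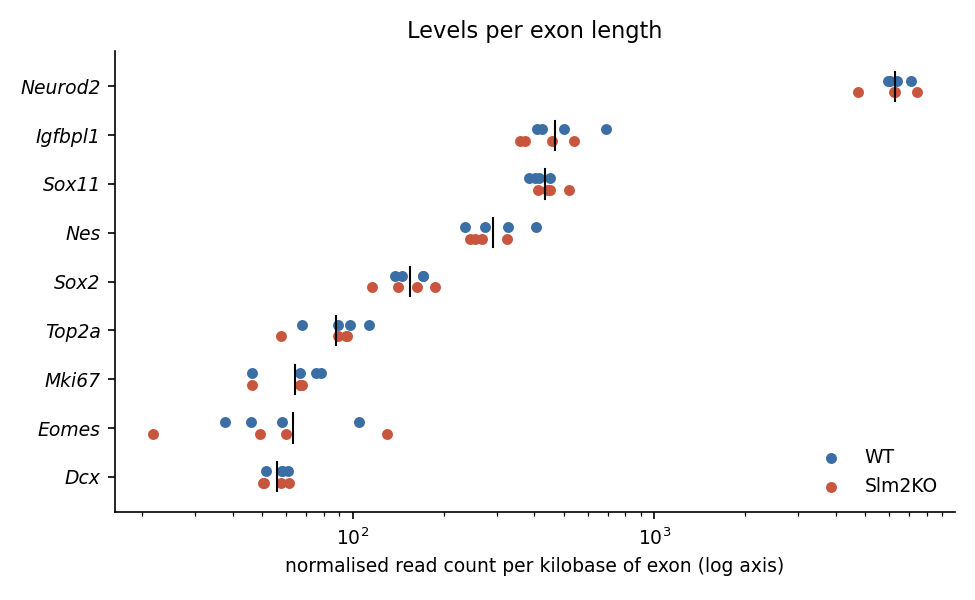
Normalised read count per kilobase of GENCODE exon (x axis, log scale) for the 9 genes in order of their mean (points, WT and Slm2KO libraries; vertical bars, mean over 8 libraries). Neurod2 stands alone near 6261, and Eomes has the widest spread.

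The wider gene lists for each step gave no gene past the threshold. Of 21 stem cell and radial glia genes tested, 5 were higher and 16 lower in Slm2KO in sign, with a median log2 difference of -0.06 beside -0.01 over all features; 0 passed, and at an unadjusted p under 0.05 there was 1 of 21, where 3.52% of all features were: Lpar1, a lysophosphatidic acid receptor of stem cells and oligodendrocytes (1840 ± 149 and 1612 ± 75.0; SD, n = 4; log2 difference -0.19). Gfap, the astrocyte and radial glia filament, was at -0.12 and the receptor Notch1 at -0.17. Among 34 proliferation genes, 16 differences were positive and 18 negative (median -0.03), and 3 had an unadjusted p under 0.05, against the same 3.52%. The 3 with the smallest p were Ccne2, a cyclin of the G1 to S transition, at 749 ± 41.5 and 892 ± 84.3 (SD, n = 4; log2 difference 0.25), and the replication helicase subunits Mcm2 at -0.17 and Mcm4 at 0.19. Ccne2 and Mcm2 were the only ones of the 34 whose groups did not overlap, 1 in each direction, where 1.33% of all features were higher and 1.17% lower without overlap. The median became 0.04 without Slm2KO 1 and 0.01 without WT 2 or WT 3.

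Of 12 intermediate progenitor and neuroblast genes, 5 differences were positive and 7 negative (median -0.06), and none reached an unadjusted p under 0.05; Tbr1 was at -0.13 and Mfng, a modifier of Notch, at -0.14. Of 19 immature neuron genes, 8 were positive and 11 negative (median -0.06), again with none under 0.05; the smallest p values belonged to the tubulin gene Tubb2b at -0.11, Dpysl5 at -0.15 and the adhesion molecule Ncam1 at -0.08. The 19 niche signals, secreted factors and receptors that regulate the stem cells, had 6 positive and 13 negative differences (median -0.06), with Smo, the Hedgehog transducer, at -0.18, Bdnf at -0.16 and Igf1 at 0.10. The signs of these 3 medians rested on single libraries: without Slm2KO 4 the median was 0.003 for the intermediate progenitor list, 0.02 for the immature neuron list and 0.04 for the niche signals, and it was also positive without WT 3 for the first (0.01) and without WT 1 for the last (0.02).

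Mature granule cell genes were mostly lower in sign, without a call. Of 14, 13 were negative and 5 had an unadjusted p under 0.05, where 1.82% of all features were lower at that level; the median was -0.13. Pdyn, which encodes prodynorphin, held 2589 ± 205 in WT and 2255 ± 53.7 in Slm2KO (SD, n = 4; log2 difference -0.20), Tdo2 was at -0.26 and the desmosome gene Dsp at -0.26. The groups did not overlap for 3 of the 14, against 1.17% of all features in that direction. Slm2KO 4 held the lowest count of Pdyn, Tdo2 and Dsp, and it was also the library with the most choroid plexus RNA. With Ttr as a covariate the median was -0.13 and the log2 differences of Pdyn, Tdo2 and Dsp were -0.19, -0.25 and -0.27. Without Slm2KO 4 the median was -0.08 and those differences were -0.19, -0.17 and -0.20. Without the libraries of lowest and highest Ttr, WT 2 and Slm2KO 4, the median was -0.07 and the differences were -0.14, -0.16 and -0.25. The part of choroid plexus RNA in these differences was not tested. Markers of other cells gave no call either: 8 of 10 astrocyte, 9 of 10 oligodendrocyte precursor, 9 of 10 endothelial and mural, 7 of 10 microglial, 8 of 11 ventricular-zone and olfactory, 5 of 11 choroid plexus and ependymal and 8 of 9 neuronal genes were negative, with medians of -0.06, -0.14, -0.26, -0.05, -0.05, 0.07 and -0.03. Over all features 53.9% were negative, with a median of -0.01. At an unadjusted p under 0.05 in limma, 1 astrocyte, 1 oligodendrocyte precursor and 1 microglial gene were lower, against 1.82% of all features.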

How the data were processed

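Hippocampal RNA was sequenced from 4 samples labelled WT and 4 labelled Slm2KO. It was extracted with Trizol and made into libraries with the Illumina TruSeq RNA kit, per the labels' protocols; this kit does not mark strand. The deposited signal values are normalised read counts per gene: the authors scaled the reads with DESeq, per the submitters' processing notes, which also name FastQC, Picard and SAMtools and the human build hg19, whereas the file header states mm10. Aligner, counter and strand setting: not given in the sources used here. Values were whole multiples of 1 step per library, so whole reads could be recovered (100% of values, with a tolerance of 0.001 reads); in WT 1 the step is close to 1.

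Groups were compared with limma 3.58.1 in R 4.3.3 on log2(value + 1), with a trended prior and no covariate, over the 25667 features with a mean of at least 10, with Benjamini-Hochberg adjustment over all of them. The added 1 shrinks changes of low genes. Exact permutation tests used all 70 assignments of 4 against 4, with a smallest possible p of 0.0286. The fit was tested on simulated data. Alternatives were edgeR 4.0.16 and DESeq2 1.42.0 on the recovered reads, other pseudocounts, filters, scalings and covariates, and left-out libraries. Named genes were the 9, the 3 smallest p values of each of the 6 neurogenesis lists, and the 3 closest patterns (for Mki67, Dcx, Sox11 and Igfbpl1); Eomes' closest patterns, Neurog2, Nhlh1, Gadd45g, Sp8, Neurod6, Sox4, Sox2ot, Rara, GSMG0042901 and the genes listed as sharing extreme libraries were chosen after their values were seen. A few results under these rules are not reported here. Where a symbol had several rows, the row with the highest mean was used. The genes and lists were chosen with earlier results of these data known. Of the planned comparisons, those with Neurod1 were not run. Python 3.11.15 and matplotlib 3.10.9 made tables and figures.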

Additional observations from a re-analysis of the deposited data

Results flagged for a closer look

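Within the Slm2KO group, Mki67 and Top2a each had 1 library far from the other 3, Slm2KO 1 (466 against 671 to 683 for Mki67, and 521 against 806 to 858 for Top2a). The gap to the nearest library took 0.945 of the group's range for Mki67 and 0.845 for Top2a, above Dixon's 95% critical value for 4 samples. These were 2 of 24 groups examined, over 9 genes and 3 ratios with 2 labels each, and chance flags about 1 in 20. Because the 2 genes varied together, the 2 flags are not independent. Among the WT libraries WT 1 was also low for both genes but was not far enough from the rest to be flagged.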

How the results depend on the processing

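The finding that none of the 9 genes passed the threshold held in all 22 alternatives, as did the count of 0 for the genes of the 6 neurogenesis lists; the smallest adjusted p of any of the 9 genes in any alternative was 0.774. Over all features, limma called 1; DESeq2 called 9, limma with Ttr as a covariate 2 and with a pseudocount of 10 also 2, and without WT 1 and Slm2KO 1, an alternative added after seeing the data, 0. With single libraries left out the count ran from 0 to 2, at 0 without WT 1, WT 4, Slm2KO 1 or Slm2KO 3.

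Signs of differences near 0 turned in 11 of 198 values of the 9 genes. The 198 include settings that could not change the log2 difference: the other filters, the replicate block and the sample number series as a covariate. With single libraries left out, the log2 difference ran from -0.164 to 0.0690 for Sox2 (positive without Slm2KO 3), from -0.288 to -0.0290 for Nes, from -0.257 to 0.0433 for Mki67 and from -0.266 to 0.0445 for Top2a (both positive without Slm2KO 1), from -0.504 to 0.348 for Eomes (positive without Slm2KO 2, and 0.210 without WT 3) and from -0.154 to 0.0619 for Neurod2 (positive without Slm2KO 4). Eomes was 0.0844 in DESeq2 and 0.0835 in edgeR, and Sox2 0.0177 without WT 1 and Slm2KO 1. Without the libraries of lowest and highest Ttr, Nes was 0.00214, Neurod2 0.0311, Dpysl5 0.0114 and Ncam1 0.0118. List medians that turned positive in sign with 1 library left out reached 0.0439 for proliferation (without Slm2KO 1), 0.0133 for intermediate progenitors (without WT 3), and 0.0187 for immature neurons and 0.0356 for niche signals (without Slm2KO 4). With single libraries left out, the ratio difference ran from 0.0300 to 0.218 for Dcx to Prox1, from -0.214 to 0.120 for Igfbpl1 to Prox1 and from -0.248 to 0.110 for Mki67 to Sox2. Pearson's r then ran from 0.961 to 0.981 for Mki67 and Top2a, from 0.684 to 0.802 for Sox2 and Nes, from 0.0655 to 0.585 for Sox11 and Dcx, from -0.241 to 0.529 for Sox11 and Igfbpl1, and from 0.248 to 0.772 for Dcx and Igfbpl1; these alternatives for r were added after seeing the data. As deviations from group means, Sox11 and Igfbpl1 had r = 0.238 and Sox11 and Dcx 0.666. The cause of these shifts was not tested.

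Whether the samples were paired cannot be settled by correlation. Deviations of same-numbered libraries from their group means correlated at 0.124, 0.323, -0.0654 and -0.122 for numbers 1 to 4. WT 3 with Slm2KO 4 gave 0.317 and WT 4 with Slm2KO 3 gave 0.232. The remaining pairs of unlike number ran from -0.322 to 0.140. With the replicate number as a block, limma called 1 feature and 0 of the 9 genes; not every library correlated best with its own number. The 9 genes had at least 86 reads in every library, and their coefficient of variation between libraries was 2.15 to 18.01 times that of counting error.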
